A study of Mus musculus with 8 samples.

Results

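The receptor activity-modifying proteins Ramp1, Ramp2 and Ramp3, the receptor Calcrl and the peptide adrenomedullin (gene Adm) were measured by 8 of the 39429 probes of a mouse Agilent two-colour array, and are 5 of the 30222 gene names on it. The probes were taken by gene name: 3 name Ramp1, 2 name Ramp3, and Ramp2, Calcrl and Adm have 1 probe each. The family was taken up because Ramp3 was among the genes that had risen in an earlier analysis of the same arrays. Its differences between the groups are therefore given as a description. Where the text says how many of its probes passed the threshold of the fit across all probes, this is a count to set beside the share of all probes, and no evidence for the family. Of the 8 probes, 5 were bright enough to enter the fit across all probes, which held 22847: both Ramp3 probes, 2 Ramp1 probes and the Adm probe.

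The study asked, as its title puts the topic, how the phosphotyrosine-binding domain of the adaptor ShcA acts in breast cancer progression. It compared 4 samples of NMuMG-NT2197 cells that express ShcA R175Q with 4 samples of the same cells that express wild-type ShcA. NMuMG is a mouse mammary epithelial cell line, and NT2197 is its derivative transformed by activated Neu (ErbB2). R175Q replaces the arginine at residue 175 of ShcA by glutamine, in the domain that binds phosphotyrosine. Both groups carry the cDNA in the same pMSCV/hygro vector, in which the promoter of a murine retrovirus drives expression, so both differ from untransfected cells. The labels do not say whether the replicates are separate cultures or clones, nor what became of the cells' own ShcA. Probabilities given below then measure only the spread between these samples, which may be technical. Each sample was labelled with Cy3 and hybridised with a common reference RNA labelled with Cy5, without dye swap, so the brightness of the Cy3 channel is that of the cells.

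RAMPs are small proteins that cross the membrane once and act by joining a receptor. Calcrl alone does not reach the cell surface in working form. With Ramp1 it makes the receptor for calcitonin gene-related peptide, and with Ramp2 or Ramp3 it makes receptors for adrenomedullin. These receptors act mainly through Gs, adenylyl cyclase and cyclic AMP. Adrenomedullin widens blood vessels, is needed for vessels and lymphatics to form, and is made in many tissues and tumours, where low oxygen raises it. Ramp3 also changes how the receptor is sorted after it is taken into the cell, and RAMPs bind several other receptors, the estrogen-binding receptor Gper1 among them.

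What each probe reads sets what its values can say, so the stretches that matter are given first, as the array design holds them, with coordinates in mouse build mm9. All probes are 60 bases long. The Ramp3 probes, at chr11:6577416-6577475 and chr11:6577424-6577483 on the plus strand, share 52 of their bases, so they are repeat readings of the same site and not independent ones. The Ramp2 probe lies on the plus strand of the same chromosome, at chr11:101109501-101109560. These 2 sequences are shown because each holds the letters of a poly(A) signal, in capitals, on the probe's own strand. The Ramp3 stretch lies in both probes.
Ramp3, chr11:6577438-6577467: ctgctgatgtcagttctttttgATTAAAgt
Ramp2, chr11:101109530-101109559: tgtagtctttaaAATAAAgttatgtttttg
The letters ATTAAA occur in 4.56% of all probes and AATAAA in 12.6%, so finding one is a description of the probe and nothing more.

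The first Ramp1 probe is shown whole, since its place sets it apart from the other Ramp1 probes. Its 60 bases are spread over 26256 bases of the plus strand, between chr1:93093453 and 93119708, so it reads RNA joined across at least 1 intron, and 2 of its reading frames are free of stop codons. The second Ramp1 probe, at chr1:93103294-93103353, is described in the files as reading transcript variant 3, and it lies within the stretch that the first probe skips or spans. The third, at chr1:93121428-93121487, lies beyond it.
Ramp1, first probe: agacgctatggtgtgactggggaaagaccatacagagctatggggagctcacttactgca
A stretch of the Adm probe, on the plus strand, and of the Calcrl probe, on the minus strand, is given to show which bases were read. Their place within each transcript was not assigned. No capitals are used, as no motif was sought beyond the poly(A) signals, and neither probe holds one.
Adm, chr7:117773088-117773117: taagggcattttaaagtgattatattgtca
Calcrl, chr2:84173103-84173132: cactttaaccctctttataacttctcttgt

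Between 53.7% and 63.0% of spots were well above background in Cy3 on each array, and between 61.1% and 71.7% in Cy5. No spot was saturated. The arrays lie on 4 slides. Slide 1 holds R175Q replicate 1 alone, slide 2 holds R175Q replicate 2 and wild-type replicate 1, slide 3 holds R175Q replicate 3 and wild-type replicates 2 and 3, and slide 4 holds replicate 4 of both groups. Shc1, the gene of ShcA, differed by -0.14 ± 0.08 on the log2 scale (SE, limma adjusted p = 0.396). Both groups carry a ShcA cDNA and the mutant differs by a substitution, so this value does not check the labels. Erbb2 differed by -0.16 ± 0.07 (limma adjusted p = 0.272). Of 11 markers of mammary epithelium 9 were measured. Of these, Krt7, a keratin of simple epithelium, fell in R175Q cells by 1.55 ± 0.11 (limma adjusted p = 0.000801), and Krt19, another, fell by 0.41 ± 0.08 (limma adjusted p = 0.0354). The other 7 did not pass the threshold with the normexp model, although 4 of the 9 had an unadjusted p under 0.05. Krt8, a further keratin of simple epithelium, fell by 0.31 ± 0.07 with the negative control background (SE, limma adjusted p = 0.0168). When slide was a fixed block, Krt7 and Krt19 no longer passed with the normexp model (limma adjusted p = 0.0673 and 0.327), and Krt19 did not with the negative control background either (limma adjusted p = 0.0611), where Krt7 did (limma adjusted p = 0.000234). Krt8, Krt18 and Krt19 made up most of the list's summed scaled Cy3 brightness. That sum was 347624.9 to 357574.4 in R175Q arrays and 426036.3 to 461577.6 in wild-type arrays. What this shift contributes to the values below was not tested.

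Ramp3 was the member that stood out. The brightness of the first Ramp3 probe in Cy3, less the local background, was 1389.9, 1668.7, 1004.7 and 1037.4 scanner units in R175Q replicates 1 to 4, against 359.8, 247.5, 230.2 and 276.0 in wild-type replicates 1 to 4. Every R175Q array was brighter than every wild-type array, and the lowest R175Q array lay well clear of the highest wild-type one. The means were 1275.1 ± 315.0 in R175Q arrays and 278.4 ± 57.5 in wild-type arrays (SD, n = 4 each), a ratio of 4.58. In bulk RNA, more cells that express a gene and more RNA per cell cannot be told apart.

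The second Ramp3 probe, read on its own spots, gave 1298.0, 1168.1, 995.7 and 1048.8 units in R175Q replicates 1 to 4, against 280.0, 243.5, 233.4 and 278.3 in wild-type replicates 1 to 4. Its groups lay as far apart as those of the first, with means of 1127.6 ± 134.5 in R175Q arrays and 258.8 ± 23.9 in wild-type arrays (SD, n = 4 each), a ratio of 4.36. The reference channel of the same spots did not move with the group. The Cy5 means of the first probe were 3954.3 ± 609.0 on R175Q arrays and 3752.8 ± 477.5 on wild-type arrays, and those of the second were 3080.2 ± 167.9 on R175Q arrays and 3117.4 ± 56.8 on wild-type arrays (SD, n = 4 each). As background for such a pattern, 9.88% of all tested probes were brighter in Cy3 in every R175Q array than in every wild-type array.

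**Figure D1:**
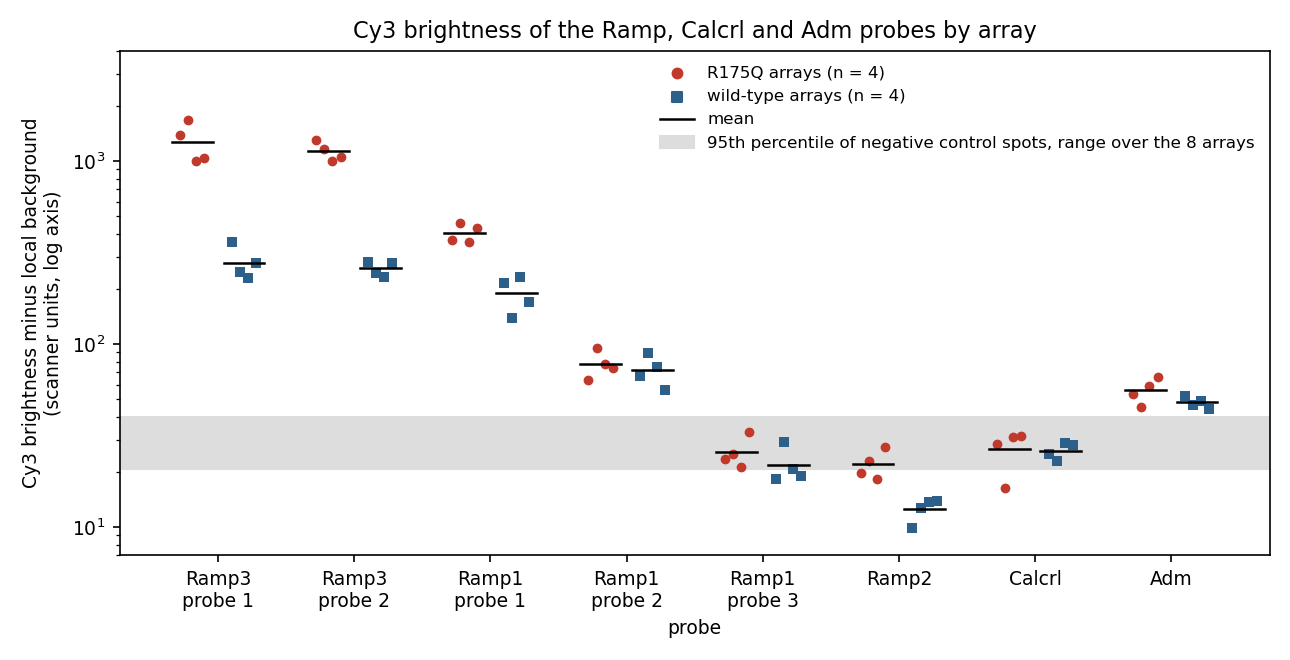
Cy3 brightness less local background, in scanner units on a log axis, of each of the 8 probes on each array. R175Q arrays are circles and wild-type arrays squares, bars are means of 4 arrays, and the grey band spans the 95th percentile of the negative control spots, 20.7 to 39.9 units over the 8 arrays. The Ramp3 probes and the first Ramp1 probe separate the groups, whereas the third Ramp1 probe, Ramp2 and Calcrl lie at or below the band in both groups.

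Brightness still holds the differences between arrays in labelling and scanning, so the ratio of Cy3 to Cy5 was taken and normalised within each array. After correction for local background with the normexp model and loess, the log2 ratio of the first Ramp3 probe was -0.71, -0.84, -1.09 and -0.79 in R175Q replicates 1 to 4, against -1.85, -2.11, -1.78 and -2.25 in wild-type replicates 1 to 4. All 8 values were below 0, which means that the cells gave less signal than the reference, R175Q cells by less than wild-type cells. The groups did not overlap. The difference, R175Q minus wild type, was 1.14 ± 0.13 (SE, n = 4 each), a 2.2-fold higher ratio. For the second probe the ratios were -0.52, -0.58, -0.93 and -0.58 in R175Q replicates 1 to 4, against -1.52, -2.01, -1.63 and -2.05 in wild-type replicates 1 to 4, with a difference of 1.15 ± 0.15 (SE), or 2.22-fold. The 2 probes ranked 30 and 31 of 22847 by the size of the rise. Both passed the threshold of 0.05 on limma's adjusted p over all tested probes, as did 4.01% of these probes, 2.12% with a higher and 1.89% with a lower value in R175Q cells. Since the family was chosen from this contrast, nothing is read from that count. A ratio ordered in the same way, every R175Q array above every wild-type array, was found for 5.17% of tested probes.

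The size of the Ramp3 difference depended on how background was taken. The normexp model fitted a background in Cy3 that ran from -689.8 units on R175Q replicate 4 and -543.0 on wild-type replicate 3 to -0.369 on R175Q replicate 3. These fitted values differ between arrays by more than the whole brightness of Ramp3 in wild-type cells. When the background was estimated from the negative control spots instead, the first probe's ratio averaged -0.98 ± 0.11 in R175Q arrays and -2.75 ± 0.12 in wild-type arrays (SD, n = 4 each), a difference of 1.77 ± 0.08 (SE), or 3.41-fold. The second probe averaged -0.76 ± 0.13 in R175Q arrays and -2.55 ± 0.15 in wild-type arrays (SD, n = 4 each), a difference of 1.79 ± 0.09 (SE), or 3.47-fold. In the authors' deposited table the differences were 1.75 and 1.73. That table's direction, Cy3 over Cy5, was taken from its positive correlation with the scanner's ratios, and how it was scaled and centred is unknown. The SD within each group was smaller by either of these than by the normexp model, for both probes. Of all tested probes 17.6% passed the threshold with the negative control background, 7.91% higher and 9.72% lower in R175Q cells.

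**Figure D2:**
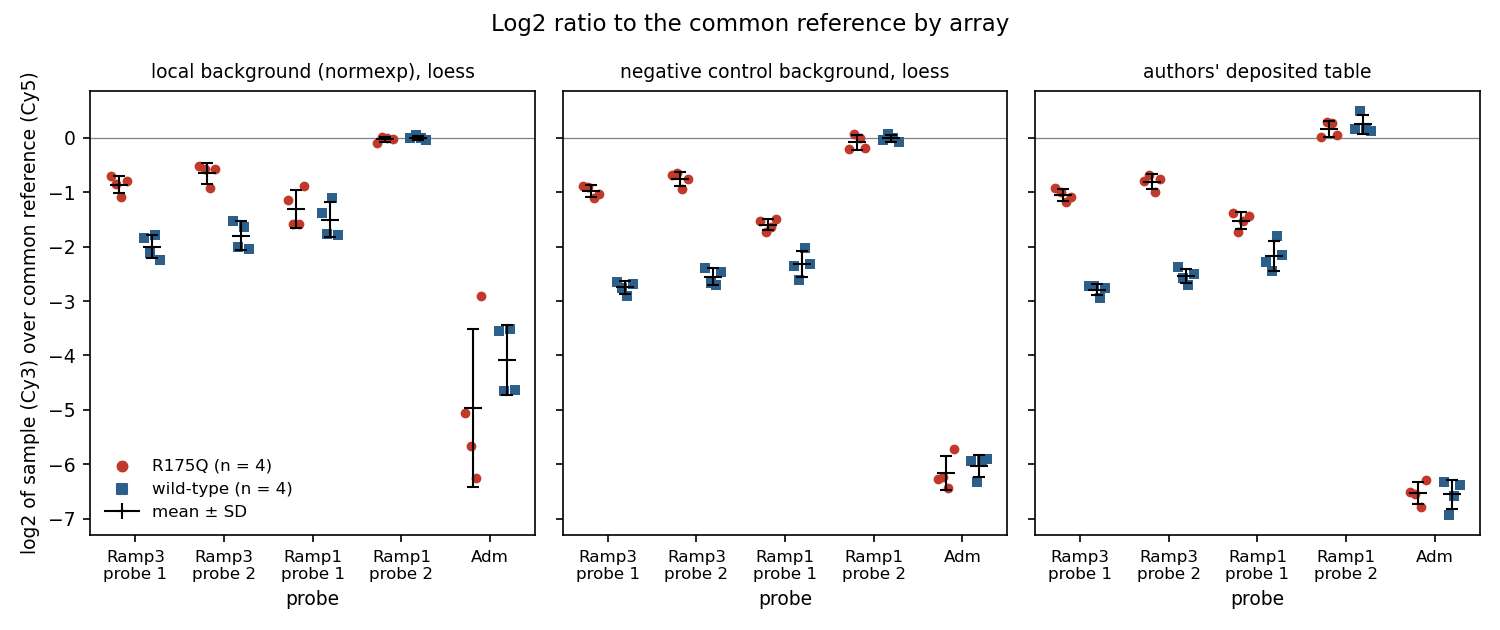
Log2 ratio of sample (Cy3) to common reference (Cy5) on each array for the 5 probes in the fit, with local background (left), with the negative control background (middle) and in the authors' deposited table (right). R175Q arrays are circles and wild-type arrays squares, with mean and SD of 4 arrays beside them. Ramp3 separates the groups in all panels, the first Ramp1 probe in the middle and right panels, and Adm in none.

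Slides 2, 3 and 4 each hold both groups, so the difference can be read within each. For the first Ramp3 probe it was 1.01, 0.86 and 1.46 in slides 2, 3 and 4 with the normexp model, and 1.75, 1.73 and 1.65 with the negative control background. The second probe gave 0.93, 0.89 and 1.47 with the normexp model, and 1.74, 1.74 and 1.71 with the negative control background. All of these values were above 0, which had to be so, as the groups do not overlap with either background. Only their sizes are informative. The ratio of brightness in Cy3 alone was 4.64, 4.21 and 3.76 for the first probe in the same slides. With slide as a fixed block in the normexp fit 0 member probes and 1 of all tested probes passed the threshold. With slide as a random block in the same fit 2 member probes and 648 of all probes passed. A fixed slide block with the negative control background gave 3 member probes and 2736 of all probes.

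Ramp1, the partner that makes Calcrl a receptor for calcitonin gene-related peptide, gave a different answer from each probe. The probe that crosses an intron read 368.1, 457.6, 358.7 and 427.9 units in Cy3 in R175Q replicates 1 to 4, against 215.5, 138.5, 233.2 and 169.3 in wild-type replicates 1 to 4. Each R175Q array was brighter than each wild-type array, as for 9.88% of all tested probes. The means were 403.1 ± 47.5 in R175Q arrays and 189.1 ± 43.2 in wild-type arrays (SD, n = 4 each), a ratio of 2.13. The Cy5 means differed by a ratio of 1.07.

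In the normalised ratios the same probe did not separate the groups with the normexp model. Its values were -1.15, -1.59, -1.59 and -0.89 in R175Q replicates 1 to 4, against -1.38, -1.76, -1.11 and -1.78 in wild-type replicates 1 to 4, and the difference was 0.20 ± 0.21 (SE). The highest value in each group came from the array of that group with the most negative fitted background, R175Q replicate 4 and wild-type replicate 3. Within slides 2, 3 and 4 the difference was -0.21, -0.16 and 0.89, so its sign was not the same in all. The negative control background gave -1.53, -1.73, -1.63 and -1.50 in R175Q replicates 1 to 4, against -2.36, -2.61, -2.02 and -2.31 in wild-type replicates 1 to 4. Here the groups did not overlap, as they did not for 9.88% of tested probes with every R175Q array the higher, and the difference was 0.73 ± 0.11 (SE), or 1.65-fold. Within slides 2, 3 and 4 it was 0.63, 0.68 and 0.81. In the authors' deposited table it was 0.66. By this measure the probe passed the threshold together with both Ramp3 probes, making 3 of the 5 member probes in the fit, beside 17.6% of all tested probes. Of these 3, 2 are probes of Ramp3, through which the family was chosen, and nothing is read from the count.

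The Ramp1 probe described as reading transcript variant 3 did not separate the groups by any of these measures. Its brightness was 63.8, 95, 77.6 and 73.5 in R175Q replicates 1 to 4, against 66.5, 89.5, 74.8 and 56.2 in wild-type replicates 1 to 4, so the groups overlapped throughout. The difference was -0.03 ± 0.05 with the normexp model and -0.07 ± 0.08 with the negative control background (SE). These errors are small against the 0.73 of the intron-crossing probe, but the probe is dim, and the offset of 50 draws the ratios of dim spots towards 0. The third Ramp1 probe was not well above background on any array in either channel. It read 23.5, 25.0, 21.2 and 32.9 units in R175Q replicates 1 to 4, against 18.3, 29.3, 20.7 and 19.0 in wild-type replicates 1 to 4, close to the 95th percentiles of the negative control spots, 20.7 to 39.9 units.

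**Figure D3:**
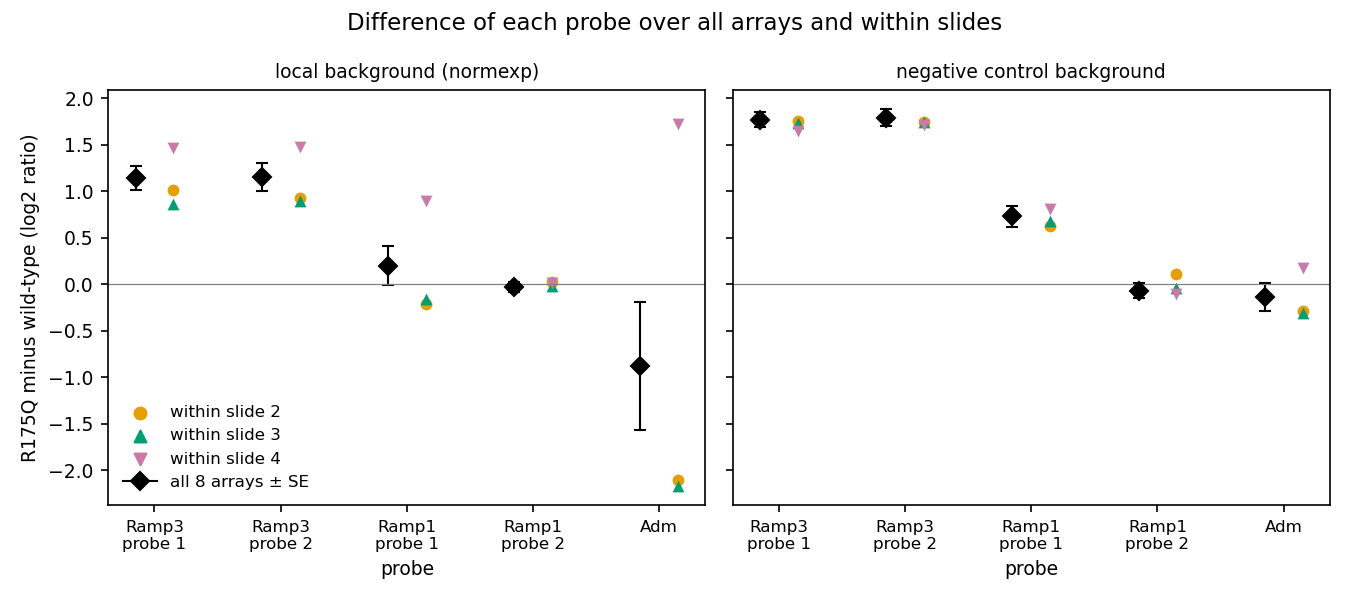
Difference in log2 ratio, R175Q minus wild type, for the 5 probes in the fit, with local background (left) and the negative control background (right). Diamonds with SE use all 8 arrays, and coloured symbols are differences within slides 2, 3 and 4. The Ramp3 values lie above 0 in every slide in both panels, which follows from groups that do not overlap. The first Ramp1 probe changes sign between slides on the left only, and Adm does so in both.

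The receptor that RAMPs need to bind adrenomedullin was at the limit of the assay. Calcrl read 28.3, 16.3, 31.2 and 31.4 units in Cy3 in R175Q replicates 1 to 4, against 25.0, 23.0, 28.7 and 27.9 in wild-type replicates 1 to 4. The scanner software put it well above background on 1 of 4 R175Q arrays, replicate 3, and on 0 of 4 wild-type arrays. The groups overlapped, and no fold is given. In the reference channel the same probe was well above background on 7 of 8 arrays, at 68.2 to 103.4 units, so the probe can give signal, if a weak one. Low brightness on an array gives an upper bound on the signal and does not show that the transcript was absent.

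Ramp2, the partner that carries most adrenomedullin signalling in endothelium, was not well above background in the cells on any array. Its brightness was 19.8, 22.9, 18.3 and 27.3 in R175Q replicates 1 to 4, against 9.82, 12.7, 13.7 and 13.9 in wild-type replicates 1 to 4. These values do not overlap between the groups, but all 8 lie below the 95th percentile of the negative control spots of their own array. The medians of those spots were 13.1 to 22.7 units. No fold is therefore given. The reference read 229.9 to 410.2 units at the same spots and was well above background on all 8 arrays.

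Adm, the ligand, was dim in the cells and bright in the reference. It read 53.4, 45.5, 58.8 and 66.3 units in Cy3 in R175Q replicates 1 to 4, against 52.0, 46.6, 48.9 and 44.3 in wild-type replicates 1 to 4. The groups overlapped, with means of 56.0 ± 8.78 in R175Q arrays and 47.9 ± 3.32 in wild-type arrays (SD, n = 4 each). The probe was well above background on 2 of 4 R175Q arrays and 4 of 4 wild-type arrays, while Cy5 read 8332.7 to 13939.1 units over the 8 arrays.

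Corrected by the negative controls, the Adm ratio was -6.27, -6.23, -6.44 and -5.72 in R175Q replicates 1 to 4, against -5.95, -6.33, -5.94 and -5.90 in wild-type replicates 1 to 4. The difference between the groups was -0.14 ± 0.15 (SE), within the spread of the arrays. With the normexp model the ratios ran from -6.25 to -2.91 in R175Q arrays and from -4.66 to -3.51 in wild-type arrays, and the difference was -0.88 ± 0.69 (SE). Within slides 2, 3 and 4 that difference was -2.10, -2.17 and 1.72. The normexp ratios moved with the fitted backgrounds: the array with the highest ratio, R175Q replicate 4, had the most negative one, and the array with the lowest, R175Q replicate 3, the one nearest 0. In the authors' deposited table the difference was 0.02.

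Cell types that usually carry these genes were looked for through lists of markers. Of 18 markers of blood endothelium, where Calcrl and Ramp2 are high, 10 had no probe well above background on any array, Cdh5, Tek, Tie1, Cldn5 and Emcn among them. Others, Kdr, Flt1, Eng, Egfl7 and Plvap among them, were well above background on every array. Flt1 was the brightest, at 5477.4 to 7878.5 units in R175Q arrays and 5337.6 to 6110.7 in wild-type arrays. Of the 7 measured, 0 passed limma's adjusted threshold with the normexp model and 0 had an unadjusted p under 0.05. Vwf, the von Willebrand factor, rose by 0.84 ± 0.11 with the negative control background (SE, limma adjusted p = 0.000515), at 205.6 to 233.3 units in R175Q arrays and 71.8 to 116.9 in wild-type arrays. The list's summed scaled brightness was 9083.6 to 10684.2 in R175Q arrays and 7889.4 to 9991.3 in wild-type arrays. Of 6 markers of lymphatic endothelium 2 were measured and neither passed, with either background or at an unadjusted p under 0.05. Of 11 markers of fibroblasts and pericytes 8 were measured, and 0 passed limma's threshold with the normexp model, with 1 at an unadjusted p under 0.05. The negative control background gave 4 higher ones, Col1a2, Col3a1, Dcn and Pdgfrb, beside 8.51% of all genes. Of these, Pdgfrb, a receptor for platelet-derived growth factor, rose most, by 1.18 ± 0.10 (SE, limma adjusted p = 4.86e-05). With the normexp model Col3a1 differed by -0.28 ± 0.48, Dcn by -0.04 ± 0.39, Col1a2 by 0.09 ± 0.32 and Pdgfrb by 0.66 ± 0.17 (SE). The other measured markers of this list did not pass with either background. Before scaling, Pdgfrb alone read 703.4 to 1124.8 units in R175Q arrays and 271.7 to 317.5 in wild-type arrays. The list's scaled sum was 2452.0 to 2959.9 in R175Q arrays and 1521.8 to 1817.1 in wild-type arrays. The part of these markers in the Ramp3 and Ramp1 values was not tested. Of 12 macrophage markers 10 were measured and 0 passed with the normexp model or had an unadjusted p under 0.05, while Mrc1 and Adgre1 were lower with the negative control background. Of 6 smooth muscle markers 3 were measured, and 0 passed with either background, with 1 at an unadjusted p under 0.05. Of 7 adipocyte markers 4 were measured, and Fabp4, a carrier of fatty acids, fell by 0.72 ± 0.14 (limma adjusted p = 0.0347). With slide as a fixed block it did not pass with the normexp model (limma adjusted p = 0.182) and did with the negative control background (limma adjusted p = 0.00592).

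Other genes of the pathway were read from 5 lists of 76 genes, with the brightest tested probe for each gene. Of these genes 56 were measured, and 8 rose and 3 fell in R175Q cells, beside 4.46% of all 17458 genes so measured, 2.41% higher and 2.04% lower. By the negative control background 14 rose and 5 fell, beside 18.2% of all genes, 8.51% higher and 9.69% lower. The lists were chosen with earlier results of these arrays known. The 11 genes that passed moved in the same direction within each of slides 2, 3 and 4. Their groups did not overlap, so this had to be so and adds nothing. When slide entered the normexp fit as a fixed block, 0 of the 11 passed, at limma adjusted p from 0.123 to 0.334, although all 11 had an unadjusted p under 0.05. As a random block it left 11 pathway genes past the threshold, 8 higher and 3 lower. In the negative control fit with the fixed block all 11 passed.

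Ligands of the calcitonin family were scarcely seen. Of Calca, Calcb, Iapp and Adm2, only Adm2, which encodes a further ligand of the Calcrl receptors, was measured. It read 128.7, 153.1, 240.5 and 162.7 units in R175Q replicates 1 to 4, against 100.5, 77.0, 216.1 and 106.6 in wild-type replicates 1 to 4. The groups overlapped, and the difference was 0.07 ± 0.15 (SE, limma adjusted p = 0.809).

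Among 15 receptors known to pair with RAMPs, 6 were measured and 1 rose. Calcr, the calcitonin receptor, which takes RAMPs to form the amylin receptors, was among the 9 with no tested probe. Gper1, a membrane receptor that responds to estrogen and which Ramp3 binds, read 1860.9, 1824.9, 1204.2 and 1384.7 units in R175Q replicates 1 to 4, against 364.7, 388.8, 389.7 and 366.4 in wild-type replicates 1 to 4. The groups were far apart, and 9.88% of all tested probes had every R175Q array brighter than every wild-type array. The Gper1 log2 ratio averaged 1.71 ± 0.41 in R175Q arrays and 0.38 ± 0.09 in wild-type arrays (SD, n = 4 each). The difference was 1.33 ± 0.19 (SE, limma adjusted p = 0.0103), or 2.51-fold. The negative control fit gave 1.45 ± 0.10. Within slides 2, 3 and 4 it was 1.76, 1.41 and 0.67 with the normexp model and 1.66, 1.19 and 1.36 with the negative control background. The other receptors did not pass: Vipr1, a receptor for vasoactive intestinal peptide, differed by 0.10 ± 0.06, Pth1r, the parathyroid hormone receptor, by -0.31 ± 0.23, and Gcgr, the glucagon receptor, by -0.03 ± 0.05 (SE). Those 3 were dim, with mean brightness of 40.0 to 49.5 units. The median difference over the 6 receptors was -0.02, beside -0.014 over all genes.

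Genes of peptide processing, of the decoy receptor and of receptor trafficking gave 13 measured genes of 14, of which 2 rose and 1 fell. Ackr3, a scavenging receptor that also takes up adrenomedullin, read 6010.5, 5298.4, 7250.0 and 6182.7 units in R175Q replicates 1 to 4, against 2282.4, 2130.1, 3872.0 and 2600.9 in wild-type replicates 1 to 4, without overlap. Of all tested probes 9.88% were brighter in every R175Q array than in every wild-type array. The Ackr3 ratio rose by 1.01 ± 0.13 (SE, limma adjusted p = 0.0084), or 2.01-fold. Grk3, a kinase that marks active receptors for uptake, rose by 0.66 ± 0.09 (SE, limma adjusted p = 0.008), and by 1.05 with the negative control background. Its second tested probe differed by 0.79 ± 0.22 but did not pass (limma adjusted p = 0.103). Nherf1, the scaffold that holds the Ramp3 receptor complex at the surface in cell culture, fell to 3060.2, 3104.9, 2388.9 and 2291.4 units in R175Q replicates 1 to 4, against 4529.6, 3457.3, 3781.6 and 4082.5 in wild-type replicates 1 to 4. All R175Q arrays were below all wild-type arrays, an order whose share among all probes was not counted. The Nherf1 ratio fell by 0.62 ± 0.06 (SE, limma adjusted p = 0.00285). Arrb2, an arrestin, differed by -0.17 ± 0.06 and did not pass (limma adjusted p = 0.179). The negative control background gave 2 higher and 2 lower, adding Grk2, another receptor kinase, at -0.24 ± 0.06 (SE, limma adjusted p = 0.025). The list's median difference was -0.07.

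Of 25 genes of Gs, adenylyl cyclase and cyclic AMP targets, 18 were measured, with 2 higher and 1 lower. Adcy7, an adenylyl cyclase, read 5302.8, 4861.2, 4034.4 and 3910.8 units in R175Q replicates 1 to 4, against 2129.4, 2035.2, 2770.4 and 2149.8 in wild-type replicates 1 to 4, and rose by 0.81 ± 0.07 (SE, limma adjusted p = 0.00216). Nr4a2, a nuclear receptor gene switched on by cyclic AMP among other signals, rose by 0.56 ± 0.07 (SE, limma adjusted p = 0.00483), and its other tested probe by 0.73 ± 0.07. Prkar2a, a regulatory subunit of protein kinase A, fell by 0.45 ± 0.08 (SE, limma adjusted p = 0.0274). Its only other tested probe, which was far dimmer, had the opposite sign with the normexp model, at 0.12 ± 0.10, and did not pass. With the negative control background that probe differed by -0.17. Adcy6, another cyclase, differed by -0.18 ± 0.07 (limma adjusted p = 0.216). The negative control background gave 4 higher and 2 lower. It added Pde4b, a phosphodiesterase that breaks down cyclic AMP, which rose by 1.00 ± 0.09 (SE, limma adjusted p = 4.04e-05), against 0.22 ± 0.20 with the normexp model, under which its other tested probe had the opposite sign. It also added Sik1, a kinase gene induced by cyclic AMP, at 0.37 ± 0.10, and Prkaca, the catalytic subunit of protein kinase A, at -0.21 ± 0.07 (SE). The list's median difference was 0.07.

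The hypoxia-inducible list, in which Adm itself would belong, was measured in all 18 genes, of which 3 rose and 1 fell. Bnip3, a mitochondrial protein of mitophagy and cell death, read 17976.4 to 21971.1 units in R175Q arrays and 7733.5 to 14905.8 in wild-type arrays, and rose by 0.89 ± 0.15 (SE, limma adjusted p = 0.018). Its other 2 tested probes differed by 0.99 ± 0.17 and 0.50 ± 0.14, of which the second did not pass (limma adjusted p = 0.0971). P4ha2, a collagen prolyl hydroxylase, rose by 0.62 ± 0.13 (limma adjusted p = 0.039), and Pdk1, a kinase that limits pyruvate dehydrogenase, by 0.39 ± 0.08 (limma adjusted p = 0.0353). Pfkfb3, an activator of glycolysis, fell by 0.43 ± 0.07 (limma adjusted p = 0.0167). In all, 9 of the 18 had an unadjusted p under 0.05. The negative control background gave 7 higher and 1 lower, adding Car9, a carbonic anhydrase, at 0.99 ± 0.24, Slc2a1, a glucose transporter, at 0.52 ± 0.15, P4ha1, another prolyl hydroxylase, at 0.34 ± 0.07, and Pgk1, an enzyme of glycolysis, at 0.29 ± 0.09 (SE). The other tested probe of P4ha1 had the opposite sign with the normexp model. The median difference over the list was 0.32, beside -0.014 over all genes. The Adm probe gave no difference beyond its spread in either direction, but it was dim, at 44.3 to 66.3 units over all arrays. Its SE with the normexp model, 0.69, was larger than the list's median difference. The probe therefore cannot show whether Adm moved with the list.

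**Figure D4:**
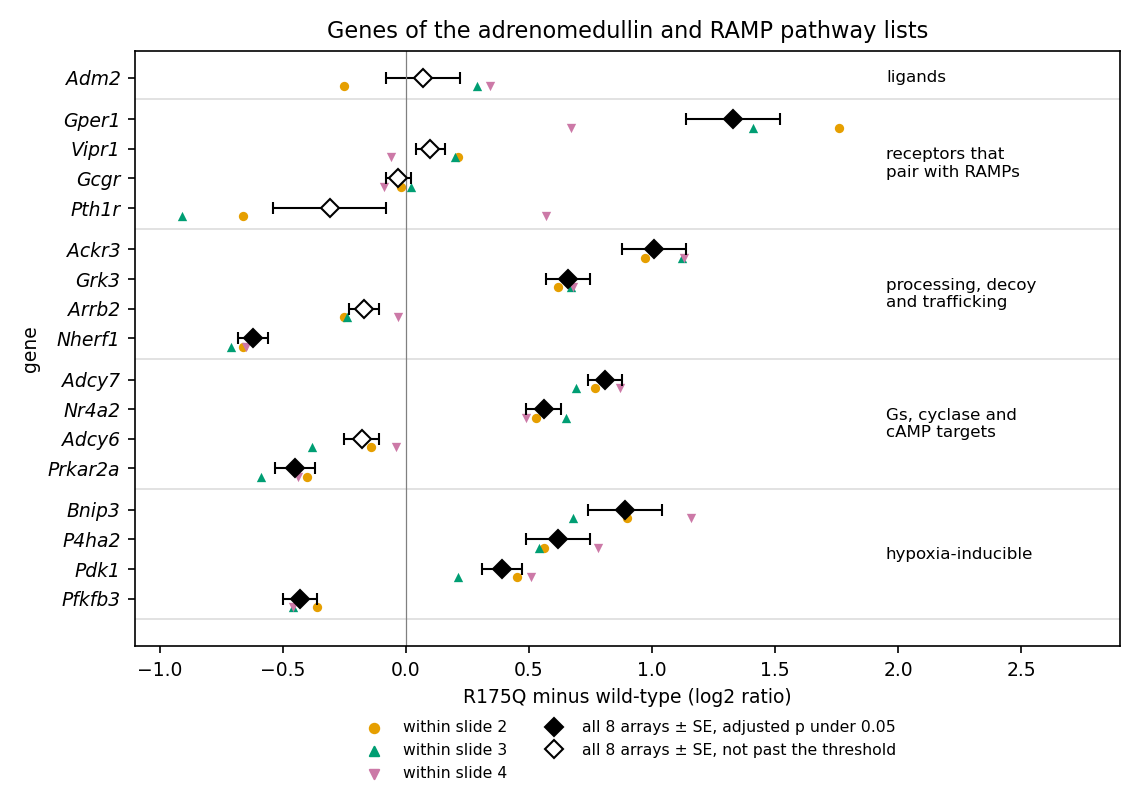
Difference in log2 ratio, R175Q minus wild type, of the genes named from each pathway list. Diamonds with SE use all 8 arrays, filled where limma's adjusted p passed the threshold, and coloured symbols are differences within slides 2, 3 and 4. Gper1 has the largest difference of those drawn, at 1.33, and its 3 slide values spread from 0.67 to 1.76.

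The genes whose ratios followed the first Ramp3 probe most closely over the 8 arrays were Cdk14, a kinase of the cyclin-dependent family, with Pearson's r of 0.997, Mgp, the matrix Gla protein that holds back calcification, with 0.996, Plcg2, a phospholipase C, and Gstm2, a glutathione transferase, with 0.993 each, and Ppic, a cyclophilin, with 0.991. These values were 0.99, 0.996, 0.978, 0.989 and 0.995 in the same order with the negative control background. Such values rest mostly on the difference between the groups, and 451 probes, those of Ramp3 included, had r above 0.9. Within the groups, from deviations about the group means, the closest were Col5a1, a collagen chain, with r of 0.983 and Mgp with 0.982, followed by Ttc39c with 0.976, Wdsub1 with 0.974 and AU021092 with 0.973. By these deviations 104 probes had r above 0.9, the first Ramp3 probe itself included. By the negative control background Mgp had 0.692, AU021092 0.272, Col5a1 -0.211, Ttc39c -0.223 and Wdsub1 -0.224. The arrays share slides, scan days and the background correction. The first Ramp1 probe had r of 0.533 with Ramp3 over the 8 arrays with the normexp model, and 0.888 with the negative control background.

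For Adm many genes were equally close. The closest genes over the 8 arrays were Slc7a3, Gpr153, Fbn1, Lrrn4cl and Ogn, with r from 0.996 to 0.998, and by deviations from the group means Krt79, Gm10413, Slc7a3, Vamp4 and Fbn1, with r from 0.997 to 0.998. However, 2100 probes had r above 0.9 with Adm over the 8 arrays, and 2288 by deviations from the group means, its own included in each count. For the first 5 genes r was 0.345 to 0.858 with the negative control background, and for the second 5 it was 0.263 for Krt79, -0.107 for Gm10413, 0.848 for Slc7a3, 0.879 for Vamp4 and 0.721 for Fbn1.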

How the data were processed

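The 8 arrays and their groups follow the labels. Per the labels' protocols, RNA input was 1 to 2.5 ng, amplified linearly in 2 rounds, and 5 µg of the product carried Cy3. The labels name a mouse Cy5 reference for the samples but a human one in the labelling protocol, and call the material microdissected although cultured cells are described, and which holds is not known. The scans were read by Agilent Feature Extraction 9.5.3.1, per the file headers. Per the file headers, the spot files hold mean intensity, the median of local background, quality flags and log10 ratios with Cy5 on top, made from processed signals. The authors' deposited value table holds log2 ratios, taken as Cy3 over Cy5 because Pearson's r with the scanner's ratio, turned that way, was 0.901 to 0.941 across probes, which are not independent replicates. The slopes were 0.657 to 0.751. Scale and centring stay unknown, and the medians of its columns, in replicate order, were 0.0585, 0.0562, 0.0607 and 0.0546 in R175Q and 0.0524, 0.0617, 0.0592 and 0.0556 in wild type.

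Intensities were corrected by normexp with an offset of 50, normalised by loess within arrays with control spots at weight 0, and averaged by probe in limma 3.58.1 (statmod 1.5.0, R 4.3.3). Probes were kept if 4 or more of 8 arrays had them well above background in Cy3, 22969 in all, less 122 with a value marked as an outlier. The groups were compared by a two-sided moderated test in limma (lmFit, then eBayes), and p-values were adjusted over 22847 probes by Benjamini-Hochberg, with a threshold of 0.05. Brightness is mean signal less median local background. On simulated data with 22847 probes, 50%, 84%, 92% and 100% of probes changed by 0.5, 1, 1.5 and 2 on the log2 scale were recovered. Of the probes called there, 5.23% had not been changed. The simulated noise was independent between probes and arrays, without effects of slide or background, so these shares do not cover such effects. The number of arrays limits the precision.

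Gene names are those of the files, updated for 26761 probes with a RefSeq match in a table used for names only. Probe coordinates and sequences are the array design's, in mm9. Exons and UTRs were not assigned. All probes of the 5 genes are named. Of each pathway list every gene past the threshold is named and, where these are under 4, those with the lowest p up to 4. Of each marker list genes past the threshold are named up to 4, and for the brightest Ramp3 and Adm probes the 5 most similar genes by each measure. Blood endothelial markers and Krt18 were named after their values were seen. So were pathway genes and markers that passed only with the negative control background. The members and lists were chosen with earlier results of these data known. Replicate numbers were not taken as pairs in the main fit. Correlations of same-numbered deviations were 0.349, 0.412, -0.442 and -0.844. So few values, which also carry the unequal fitted backgrounds of the arrays, cannot show whether the samples were paired. Alternatives covered background, normalisation, filter, fit, slide, scan day, replicate number and each array left out.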

Additional observations from a re-analysis of the deposited data

Results flagged for a closer look

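In 16 groups of 4 arrays examined for the member probes, 1 value stood apart from its group: the log2 ratio of the second Ramp3 probe in R175Q replicate 3, at -0.93, where the other R175Q replicates lay between -0.58 and -0.52. Its gap to the nearest of them was 0.854 of the group's range. Chance gives such a value in about 1 of 20 groups. The array also had the lowest ratio of the group at the first Ramp3 probe, at -1.09. Without it the difference at the second probe was 1.24, against 1.15 with all arrays.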

How the results depend on the processing

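The difference of the first Ramp3 probe was above 0 in all 33 settings tried, from 1.06 to 1.84. That of the first Ramp1 probe was above 0 in all 33, from 0.06 to 0.88. That of Adm ran from -1.57 to 0.38 over 32 settings. The first Ramp3 probe passed the threshold in 28 of the 33 settings and the first Ramp1 probe in 14. All settings reuse the same arrays, and several change the test but cannot change the difference, so their number is no measure of support. Member probes that passed numbered 2 of 5, and 0 with median centring, scaling between arrays, replicate number as a block (replicate block), or a fixed block for slide or scan day, all with the normexp model, where 2 had an unadjusted p under 0.05 in limma each time. Those that passed were 3 with no background correction, the negative control background, the scanner's processed ratio, Cy3 alone, the deposited table and array weights, where the additional probe was Ramp1 in all but the last, in which it was Adm, lower in R175Q cells. All probes that passed numbered 916, and 4252 with no background correction, 4028 with the negative control background, 3588 with the scanner's processed ratio, 3152 in Cy3 alone, 4035 in the deposited table and 5870 with array weights. Fewer passed with scaling between arrays, 136, replicate block, 121, scan day as a block, 76, a fixed slide block, 1, and median centring, 0 in limma, where 378 had an unadjusted p under 0.05 and the median of all probes lay at 0.29. Slide as a random block gave 648, with 2 member probes and 11 pathway genes. A fixed slide block with the negative control background gave 2736, with 3 member probes and 14 pathway genes. Pathway genes that passed numbered 11, and 18 with no background correction, 19 with the negative control background, 19 in the deposited table, 20 with array weights, 5 with the replicate block, 2 with scaling between arrays, 2 with scan day as a block, and 0 with median centring or a fixed slide block, where 11 and 13 had an unadjusted p under 0.05. Leaving out 1 array at a time gave 2 member probes each time, 254 to 1955 of all probes (the lowest without wild-type replicate 1, the highest without R175Q replicate 4) and 6 to 14 pathway genes. Leaving out 1 array with the negative control background, a combination chosen after seeing the data, gave 3 member probes each time, 2806 to 5152 of all probes and 14 to 23 pathway genes. The cause of these shifts was not tested. Whether replicate numbers pair the samples is not known. Probes near background, Adm, Calcrl, Ramp2 and the third Ramp1 probe, are limited by signal over background. The second Ramp1 probe was dim but well above background on every array.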
